A study of Mus musculus with 30 samples.

Results

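In the presence of the Menin inhibitor MI-503, UTX was mapped at 2558 places in mouse leukaemia chromatin that lay away from the ends of genes and had no called Menin peak in vehicle. These distal UTX peaks without Menin were chosen from the MI-503 UTX peak list by 3 conditions. The summit had to lie over 3 kb from the start and the end of every gene of any biotype annotated by RefSeq on GRCm38, the peak had to share no bp with a Menin DMSO peak, and the chromosome had to be 1 to 19. They made up 18.2% of the 14054 UTX MI-503 peaks on those chromosomes, out of 14231 in the whole list, and 70.1% (exact Clopper-Pearson 95% interval 68.6 to 71.6) of the 3647 distal ones. Both the UTX calls in MI-503 and the missing Menin calls in DMSO are measured values, so the lack of Menin and the distance from gene ends describe the choice and are not findings.

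The libraries used come from WT-MA9, 1 line of mouse acute myeloid leukaemia cells grown with IL6, IL3 and SCF, and all groups carry the same stable MLL-AF9 construct, pMSCV-MLL-AF9-GFP. Harvest came 4 days after treatment with MI-503 or with DMSO, its vehicle. Fixation took 5 minutes in 1% paraformaldehyde, and sonication 14 minutes. Peak lists hold no expression, so the labelled cell type was not checked against markers. Peak lists were used from 4 of the 30 libraries in the labels, those of Menin in DMSO (11195 peaks) and in MI-503 (8 peaks) and of UTX in DMSO (217 peaks) and in MI-503. A further UTX pair in both treatments, from WT-MA9 cells with the label Nfya-WT, is among the libraries not analysed here. With 1 library used per condition no difference between conditions or antibodies here has a replicate check, and no p-value was computed.

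UTX, encoded by Kdm6a, removes methyl groups from lysine 27 of histone H3 and travels with the MLL3 and MLL4 methyltransferases, which place the single methyl mark on lysine 4 of histone H3 that is typical of enhancers. Menin, encoded by Men1, is a subunit of the MLL1 and MLL2 complexes, which are best known at promoters. In MLL-fusion leukaemias Menin tethers the fusion protein to chromatin, and MI-503 blocks the contact of Menin with MLL.

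Of the 10 most significant of these peaks, 3 lay at alternative starts inside genes, over 3 kb from any gene end, so the sequences before 4 starts of this kind are shown here. They are the 4 peaks of highest significance whose summit fell among the 250 bases before an annotated start, and each window is given 5′ to 3′ on the strand of its gene, from RefSeq's GRCm38.p6 promoter table, with every CG dinucleotide in capitals.
Rfx5, chr3:94953858-94954107, plus strand: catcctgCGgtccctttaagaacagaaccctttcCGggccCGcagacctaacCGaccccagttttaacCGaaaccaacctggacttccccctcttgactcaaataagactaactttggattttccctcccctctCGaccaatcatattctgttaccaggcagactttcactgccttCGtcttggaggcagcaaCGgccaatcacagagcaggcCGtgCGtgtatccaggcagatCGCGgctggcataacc
Acyp1, chr12:85280436-85280685, minus strand: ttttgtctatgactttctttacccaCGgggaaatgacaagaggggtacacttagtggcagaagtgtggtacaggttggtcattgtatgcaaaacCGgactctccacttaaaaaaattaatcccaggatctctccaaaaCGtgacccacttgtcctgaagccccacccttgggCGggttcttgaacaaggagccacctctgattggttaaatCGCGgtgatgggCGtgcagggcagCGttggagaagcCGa
Osbpl9, chr4:109118037-109118286, minus strand: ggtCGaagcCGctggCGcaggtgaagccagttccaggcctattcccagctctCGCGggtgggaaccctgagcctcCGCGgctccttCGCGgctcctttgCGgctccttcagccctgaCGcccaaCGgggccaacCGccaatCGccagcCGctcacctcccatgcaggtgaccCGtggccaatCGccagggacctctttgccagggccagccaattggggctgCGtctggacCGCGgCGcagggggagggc
Dido1, chr2:180702103-180702352, minus strand: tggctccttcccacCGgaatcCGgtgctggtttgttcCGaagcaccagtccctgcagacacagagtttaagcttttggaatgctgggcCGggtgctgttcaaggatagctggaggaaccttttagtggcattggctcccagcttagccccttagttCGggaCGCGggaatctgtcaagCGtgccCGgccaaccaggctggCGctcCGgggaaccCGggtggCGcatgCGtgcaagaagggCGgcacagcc
The Rfx5 window holds 12 CG dinucleotides, the Acyp1 window 9, the Osbpl9 window 21 and the Dido1 window 15. The ratio of observed to expected CG was 0.720, 0.579, 0.697 and 0.644 in that order. The peaks' summits fell at base 159 of the Rfx5 window, 165 of the Acyp1 window, 155 of the Osbpl9 window and 181 of the Dido1 window, counted from the 5′ end. The letters CCAAT, the core bound by NF-Y, or ATTGG on the other strand, occur at 2 places in the Rfx5 window, 1 in Acyp1, 4 in Osbpl9 (of which 2 overlap in the run ccaattgg) and 1 in Dido1.

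As a group the distal UTX peaks without Menin were weak and narrow. Their median fold enrichment, the authors' ratio of read pileup to local input background at the summit with 1 added to each, was 5.84 (95% interval of the median 5.72 to 5.91) and ran from 1.25 to 21.1. Distal UTX peaks that did overlap Menin (n = 1089) had a median fold of 7.66, UTX peaks at gene ends without Menin (n = 4017) of 6.02, and UTX peaks at gene ends with Menin (n = 6390) of 10.9. So peaks without Menin had the lower median both at gene ends and away from them, and among the 4 classes the distal peaks without Menin had the lowest. The median width was 190 bp, and 826 (32.3%) had the narrowest width in the group, 179 bp. Gene-end peaks without Menin were close to this with a median width of 209 bp, and distal and gene-end peaks with Menin had 282 and 397 bp. The median peak rested on a pileup of 11 reads at its summit (exact Poisson 95% interval 5.49 to 19.7), with quartiles of 9 and 12 reads and a lowest value of 7. Of the 2558 peaks 79 (3.09%) reached 20 reads, next to 5.03% of gene-end peaks without Menin, which had the same median pileup of 11, and 34.1% and 56.7% of distal and gene-end peaks with Menin. The lowest pileup called in the Menin DMSO list was 11 reads, on a lowest background of 2.34 reads against 0.827 in the UTX MI-503 list. A place therefore needed more reads to be called for Menin than for UTX, and how many of the 2558 places carry Menin under that limit was not tested.

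**Figure D1:**
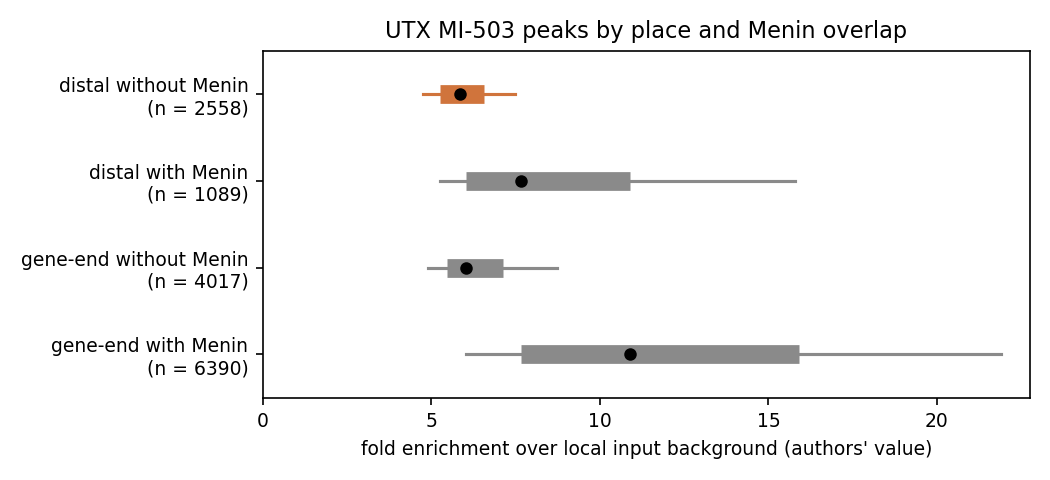
Fold enrichment (horizontal axis, the authors' linear ratio) of UTX MI-503 peaks in the 4 classes of place and Menin overlap, with the median as a black point, the quartiles as a thick bar and the 10th to 90th percentiles as a thin line. The distal peaks without Menin, in orange, have a median of 5.84 and the shortest upper reach, with a 90th percentile of 7.48 against 15.8 for distal peaks with Menin.

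The Rfx5 peak had the highest fold and the highest −log10 q of the group. It lay at chr3:94953852-94954492 (mm10), inside Rfx5, the gene of a subunit of the RFX complex that activates MHC class II genes, 92 bp upstream of an annotated start and 3327 bp from the nearest gene end. Its fold was 21.1, its −log10 q 52.8 and its pileup 48 reads. The next by −log10 q, at chr1:122357163-122357380, had a fold of 17.8 and lay 789231 bp from its nearest protein-coding gene, the RNA helicase gene Ddx18, so nearest gene there names little more than a place. The peak inside Atad1, which encodes an ATPase that clears misplaced proteins from mitochondrial membranes, had a fold of 16.1 and sat 27 bp downstream of an annotated start of that gene. The peak with a fold of 13.6 inside Zc2hc1c was 86 bp upstream of a start of the neighbouring Acyp1, an acylphosphatase gene. Of the other strong peaks, the one with a fold of 12.6 lay 21197 bp from Actb, the beta-actin gene. Another, with a fold of 12.5, lay 11103 bp from Apbb1ip, which encodes a Rap1 effector in integrin activation. A peak with a fold of 10.2 lay 15264 bp upstream of Notch2, the gene of a Notch receptor. Inside genes and far from starts, Myo9b, a myosin gene, held a peak with a fold of 11.2, and Camk1d, a calcium-dependent kinase gene, one with a fold of 8.85 on a background 5.35 times the lowest in the list. The last of the 10 most significant lay 5868 bp from LOC102637806, with a fold of 10.8.

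Nearly all of these places were called for UTX only in MI-503. A UTX DMSO peak overlapped 10 of the 2558 (0.391%, 95% interval 0.188 to 0.718), against 1.41% of all UTX MI-503 peaks on chromosomes 1 to 19. Gene-end peaks without Menin had a lower share still, 0.199% (8 of 4017), while distal and gene-end peaks with Menin had 1.47% and 2.57%. The UTX DMSO list holds only 217 peaks, and its library had at least 1.14 times the reads of its input while the MI-503 library had no more reads than the input. Folds of these 2 libraries are set side by side without a replicate. At Rfx5 the fold was 7.71 in DMSO and 21.1 in MI-503. At the peak nearest to Ddx18 it was 12.7 in DMSO and 17.8 in MI-503, and at the peak inside Camk1d it was 5.41 and 8.85. The order was the opposite at 5 of the 10 places. Inside Atrnl1 the fold was 8.77 in DMSO and 6.54 in MI-503, near Scaf8 8.44 and 4.49, near Vmn1r2 7.33 and 4.85, near Olfr161 6.98 and 4.44, and near Tra2a 5.87 and 5.49. The peak inside Gphn had 4.64 in DMSO and 6.45 in MI-503, and the tenth place lies near a predicted gene. Of these 10 places, Camk1d, Tra2a and Gphn stood on backgrounds of 5.35, 9.80 and 5.35 times the lowest of the list. The Vmn1r2, Scaf8 and Olfr161 peaks lay within 500 kb of the first assembled base of their chromosome, which in this build is at 3 Mb. None of the 2558 peaks overlapped any of the 8 Menin MI-503 peaks. A list of 8 peaks leaves room for few overlaps in any class, and the share over all UTX MI-503 peaks was not computed.

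The distance to Menin was mostly large. Part of it follows from the choice, which left out peaks that share a bp with Menin and peaks at gene ends. Gaps of the other UTX classes were not compared. The median gap to the nearest Menin DMSO peak was 42577 bp, 79.7% of the distal UTX peaks without Menin lay over 10 kb from one and 29.8% over 100 kb. At the other end, 136 (5.32%) had a Menin peak within 1 kb without sharing a base with it. The closest were at gaps of 3 bp near St3gal1, a sialyltransferase gene, and 21 bp inside Septin5, which encodes a septin, both with 11 reads and a fold of 6.57. The threshold on gene ends also cut through a continuous range. Just inside it stood the peaks near Pafah2 (3003 bp, fold 4.92), inside Mkx (3015 bp, fold 6.02) and inside Cbarp (3016 bp, fold 6.57). Just outside stood peaks inside S100a3 (2999 bp, fold 6.23) and Cyp2w1 (2996 bp, fold 5.47) and one nearest to Ntrk2 (2993 bp from a noncoding gene, fold 4.68). These neighbours on either side of the threshold had folds in the same range.

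**Figure D2:**
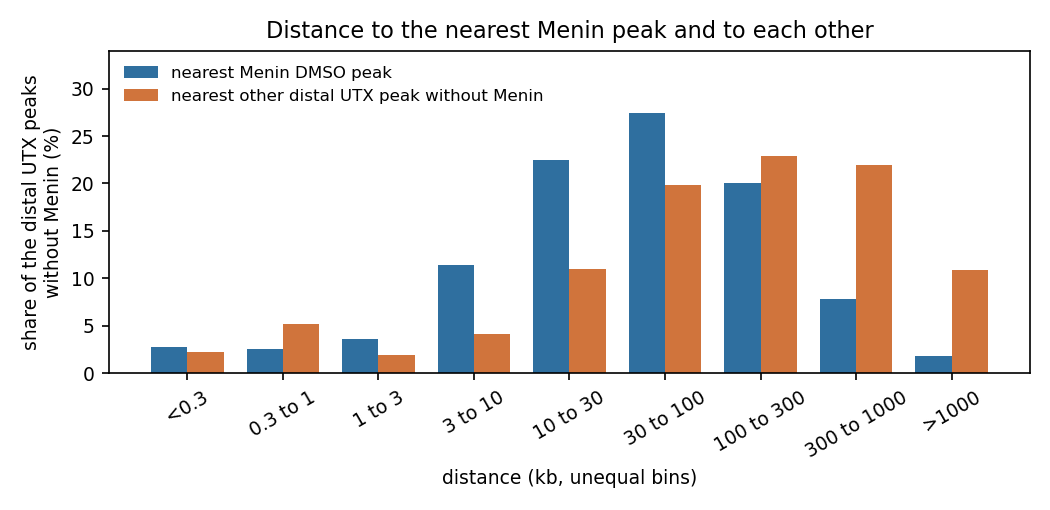
Share of the 2558 distal UTX peaks without Menin (vertical axis, percent) by distance in kb to the nearest Menin DMSO peak (blue) and to the nearest other peak of the same group (orange), in unequal bins. The Menin distances are most frequent at 30 to 100 kb (27.4%), and the distances among the peaks have a small separate rise at 0.3 to 1 kb (5.16%) with 1.88% in the next bin.

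Inside the gene map the peaks were spread widely. Of the 2558, 1649 (64.5%) lay inside an annotated gene of any biotype and 1492 (58.3%) inside a protein-coding gene. Neither share was compared with that of other UTX peaks. The peaks of the group outside protein-coding genes had a median distance of 29608 bp to the nearest such gene. The median distance to any gene boundary was 11044 bp, and 53.4% lay over 10 kb from every boundary. In the genes with a known strand, 573 of 1131 peaks (50.7%) fell in the first 50% of the gene's length. By chromosome, their share of the UTX MI-503 peaks ran from 13.7% on chromosome 19 to 26.8% on chromosome 18.

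Some of these peaks were distal only by the outer ends of genes. RefSeq lists several starts for many genes, and 175 of 2456 (7.13%, 95% interval 6.14 to 8.22; chromosome 18 with 102 peaks is not in the table of starts) had their summit 1 kb or less from a listed start, and 110 of these lay within 250 bp. Their median fold was 6.37, against 5.80 for the others. The share rose with peak significance, from 6.0% of peaks with −log10 q under 5 and 5.51% between 5 and 7 to 9.30%, 13.9% and, at 15 or more, 21.4% (9 of 42). In distal peaks with Menin it was 24.6%, and within the same ranges of −log10 q it was 16.2%, 15.9%, 21.5%, 25.9% and 33.2%, above the peaks without Menin in each. The intervals of the classes overlap in the last 2 ranges. Of the 50 most significant distal peaks without Menin outside chromosome 18, 11 were near such a start. After Rfx5, Atad1 and Acyp1 they included starts of Pde4dip (fold 11.3), a gene of a centrosome and Golgi protein, Osbpl9 (10.8), a lipid transfer protein gene, Rsad1 (11.2) and Dido1 (11.2), a PHD finger gene.

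**Figure D3:**
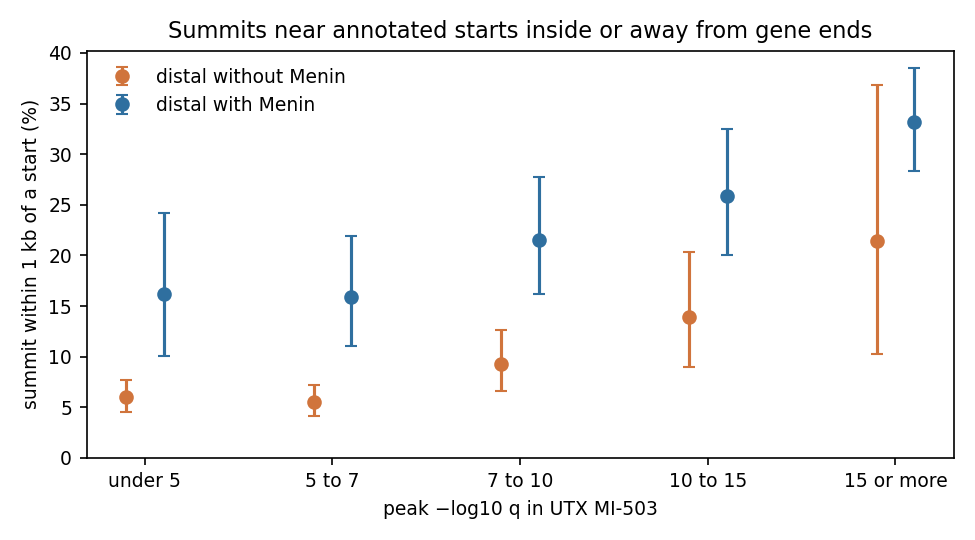
Share of summits that lie 1 kb or less from a start in the RefSeq table (vertical axis, percent) by the peak's −log10 q (horizontal axis, 5 ranges) for distal UTX MI-503 peaks without Menin (orange) and with Menin (blue). Bars are exact 95% binomial intervals; the orange points go from 6.0% to 21.4% and lie below the blue point in each range.

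The starts under these peaks were rich in CG dinucleotides, as in the 4 sequences above. RefSeq windows from 250 bases before to 50 after a start were compared. The 117 windows overlapped by a distal UTX peak without Menin, at 101 genes, had a median GC share of 60.7% and a median observed over expected CG ratio of 0.700. All 31365 windows had medians of 53.0% and 0.388, the 2910 windows of starts over 3 kb from every gene end 50.7% and 0.282, and the 253 windows under distal peaks with Menin 63.0% and 0.801. The peaks covered 116 (3.99%) of those 2910 inner starts. Letters of 11 binding motifs were searched on both strands. CCAAT was in 36.8% of the 117 windows and 37.3% of all windows. GGAAGTG, an ETS core, was in 18.8% (95% interval 12.2 to 27.1) against 11.1% of all windows and 14.2% of windows under distal peaks with Menin. AGATAA, bound by GATA factors, was in 4.27% (1.40 to 9.69) against 11.2% and 3.95%, so its low share was found under both distal classes. The PU.1 letters GAGGAAGT, which can overlap GGAAGTG, were in 4.27% against 3.25% of all windows, and TGTGGTTT, bound by RUNX factors, in 0.855% against 1.82%. The AP-1 letters TGANTCA were in 5.98% against 7.85%, and the C/EBP letters TTGCNNAA in 9.40% against 10.9%. TGACGTCA, the cyclic AMP response element, was in none of the 117 (upper 95% bound 3.10%) against 1.83%, and in 3.95% under distal peaks with Menin. The E-box letters CACGTG were in 9.40% against 7.14%, and in 13.4% under distal peaks with Menin. CAGCTG was in 16.2% against 16.3%, and the MEIS letters TGACAG in 17.1% against 19%. Of the 117 windows 116 were of inner starts. Among the 2910 inner starts CCAAT was in 35.4%, GGAAGTG in 9.21%, AGATAA in 12.6%, GAGGAAGT in 2.44% and TGTGGTTT in 2.34%. There TGANTCA was in 8.76%, TTGCNNAA in 12.2%, TGACGTCA in 1.27%, CACGTG in 5.26%, CAGCTG in 19.2% and TGACAG in 20.1%. The windows differ in GC content, and the part of base composition in these shares was not tested. The sequences of the peaks away from starts were not analysed here.

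Most of the peaks stood alone, and a few formed runs. Another distal UTX peak without Menin lay within 10 kb of 342 (13.4%), in 150 runs of neighbours, of which 21 held 3 or more, and 2216 had no such neighbour. How often peaks of the other UTX classes have neighbours of their own class was not compared. A UTX peak that overlapped Menin lay within 10 kb of 348 (13.6%). The longest run held 9 peaks between chr12:5050667 and 5059391, 3316 to 11819 bp past the end of Atad2b, which encodes a bromodomain ATPase. Their folds were 4.92 to 8.21 on 8 to 14 reads, all on the lowest background, and the nearest Menin peak was 133231 bp away, near the start of Atad2b, where UTX had a fold of 15.5. A run of 6 lay inside Rhof, the gene of a small GTPase that forms filopodia, with folds of 6.02 to 8.21. The 5 peaks of a run near Dlx4, a homeobox gene, had folds of 4.38 to 6.57. The other 2 longest runs, of 7 peaks each, lay outside genes. One was 233952 bp or more from Samd9l on chromosome 6 and the other 23885 bp or more from the vomeronasal receptor gene Vmn1r77, both on backgrounds of up to 2.67 times the lowest.

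**Figure D4:**
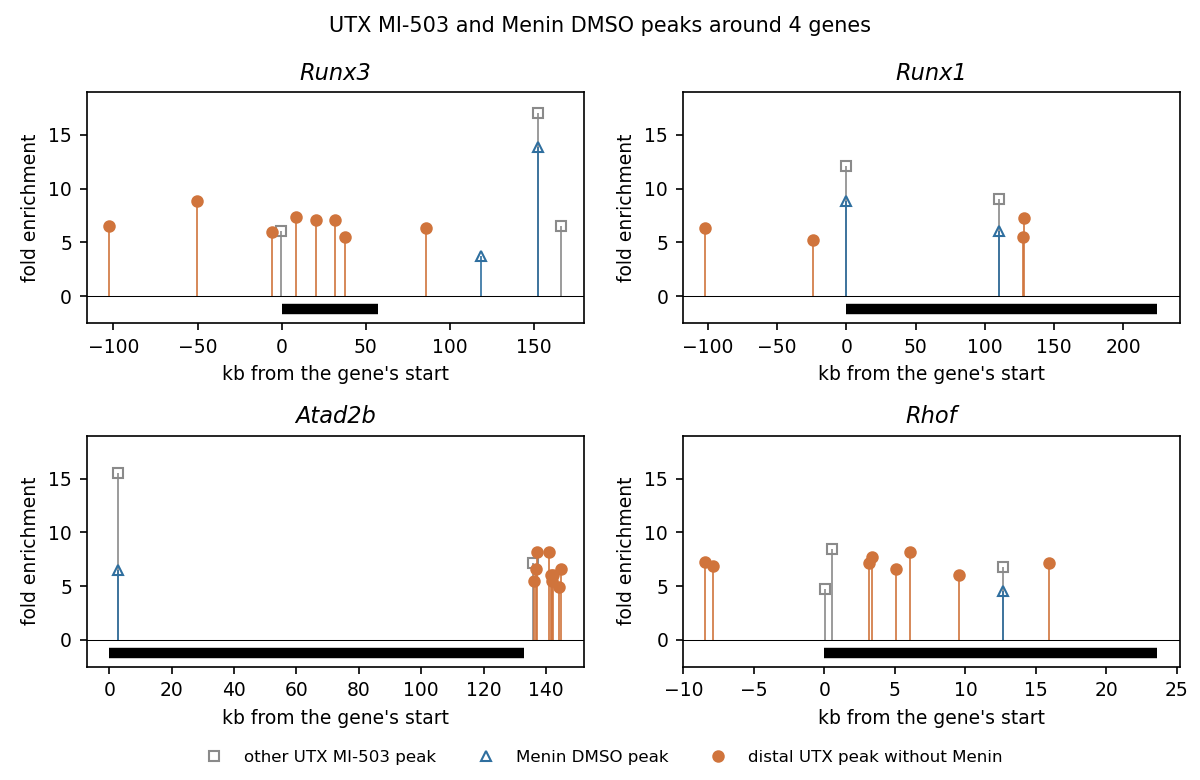
Fold enrichment (vertical axis) of distal UTX MI-503 peaks without Menin (orange circles), other UTX MI-503 peaks (grey squares) and Menin DMSO peaks (blue triangles) by distance in kb from the annotated start of Runx3, Runx1, Atad2b and Rhof, each gene drawn as a black bar. At Runx1 the Menin peaks coincide with the other UTX peaks at the start and at 110.41 kb, and at Atad2b 9 orange peaks stand past the end of the gene. Of the 8 orange peaks drawn at Runx3, and of the 8 at Rhof, 2 have another nearest gene.

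Each peak was assigned to its nearest protein-coding gene, which is a position and not a target. A gene said below to be next to a peak is its nearest gene at any distance. The 2558 peaks had 2010 nearest genes, 9.73% of the 20665 protein-coding genes on these chromosomes, and 1606 of those genes had a single peak. The nearest genes were long, with a median length of 49592 bp against 15768 bp for the other genes. A Menin DMSO summit lay within 3 kb of an end of 37.2% of the nearest genes, next to 36.9% of all protein-coding genes, and a UTX MI-503 summit at 46.8%, next to 43.3%. Genes next to these peaks thus had Menin at an end about as often as genes in general. After Atad2b, Samd9l and Vmn1r77, the genes with the most peaks were Rhof and Runx3 with 6 each. Then came Dlx4, the kainate receptor gene Grik3, Smad7 (an inhibitor of TGF-beta signalling), the mitochondrial transport gene Trak1, the receptor gene Vmn1r2 and Zmiz1 (a transcriptional coactivator), with 5 each.

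Genes of haematopoietic transcription factors stood next to these peaks more often than any of the other 14 lists examined. Of 38 such genes on these chromosomes, 22 (57.9%) were the nearest gene of at least 1 peak, beside 9.73% of all protein-coding genes. These 22 genes shared 37 peaks with a median fold of 6.02 (4.11 to 8.84), near the 5.84 of the whole group, on 8 to 16 reads and none on input-rich ground. The median length of the list's genes, with or without a peak, was 17237 bp. Protein-coding genes nearest to no peak had 15768 bp and those nearest to a peak 49592 bp. The median over all protein-coding genes was not computed, and the part of gene length in the 57.9% was not tested. The space around the genes, which also bears on how often a gene is the nearest, was not compared. Of the 22 genes 11 had a Menin DMSO summit at an end, beside 20 of the list's 38 genes. A UTX MI-503 summit lay at an end of 14 of the 22, and the list as a whole was not counted for UTX. The 37 peaks lay a median of 81831 bp from Menin, and 16 of them were inside the gene. The gene lists were drawn up with earlier results of these data known.

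Among the RUNX factors, which direct blood stem cell and myeloid programmes, Runx3 had 6 peaks and Runx1 4. The Runx3 peaks had folds of 8.84, 6.01, 7.34, 7.11, 7.11 and 5.47 in order of position, 4 of them inside the gene. The 2 outside were at 50577 and 5711 bp from it, and the nearest Menin peak of any was 80270 bp away. The second of the peaks with a fold of 7.11 lay 199 bp upstream of an annotated inner start of Runx3. At Runx1 the folds were 7.28 and 5.47 for a pair inside the gene, 113 and 1418 bp upstream of an inner start and 128632 and 127327 bp from the outermost one. They were 5.23 and 6.37 for peaks 24476 and 101879 bp upstream of the gene. Runx1 had Menin at its start and inside the gene, 16773 bp or more from these 4. Runx2, of the MLL-fusion list, held 4 peaks inside the gene with folds of 4.81 to 8.67.

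Among the ETS factors, Spi1, which encodes the myeloid master factor PU.1, had 1 peak inside its annotated span with a fold of 5.91 on 11 reads, 6063 bp from Menin. Fli1 had peaks of 4.11 and 6.57 inside the gene, Erg 7.59 and 6.52 at 9241 and 8785 bp from it, and Etv6 6.02 inside. Ets1 had 3 peaks of 5.23 to 6.28 inside. Of the C/EBP factors of granulocyte development, Cebpe had a peak with a fold of 6.02 at 3266 bp and only 126 bp from a Menin peak, and Cebpb one of 4.74 at 57122 bp. Cebpa had none as its nearest gene, though a peak of 4.92 lay 77959 bp upstream of it, nearer to Pepd. Among stem cell and erythroid regulators, Gata2 had a peak of 4.92 at 3269 bp past the gene and Lmo2 one of 6.02 at 12318 bp. The interferon regulatory factor gene Irf8, needed for monocytes, had one of 5.46 at 68098 bp. Bcl11a, Ikzf1, Klf2, Klf6, Egr1, Egr2, Nfe2, Mitf, Zfpm1 and Maf complete the 22, and Maf with 4 peaks held the highest fold of this last group, 8.76. The 16 without one included Gfi1, Tal1, Lyl1 and Irf4.

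A set of 18 genes with well studied distal elements in blood cells was also examined. Of these, 14 had a distal UTX peak without Menin inside them or within 100 kb, beside 28.4% of all protein-coding genes. Meis1, Kit, Tal1 and Zeb2 had none. All of the 14 except Csf1r are also on the list of haematopoietic transcription factors. The set therefore largely counts genes of that list again and is no separate check of its result. Neither the positions of published enhancers nor marks of enhancers were compared with these peaks.

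**Figure D5:**
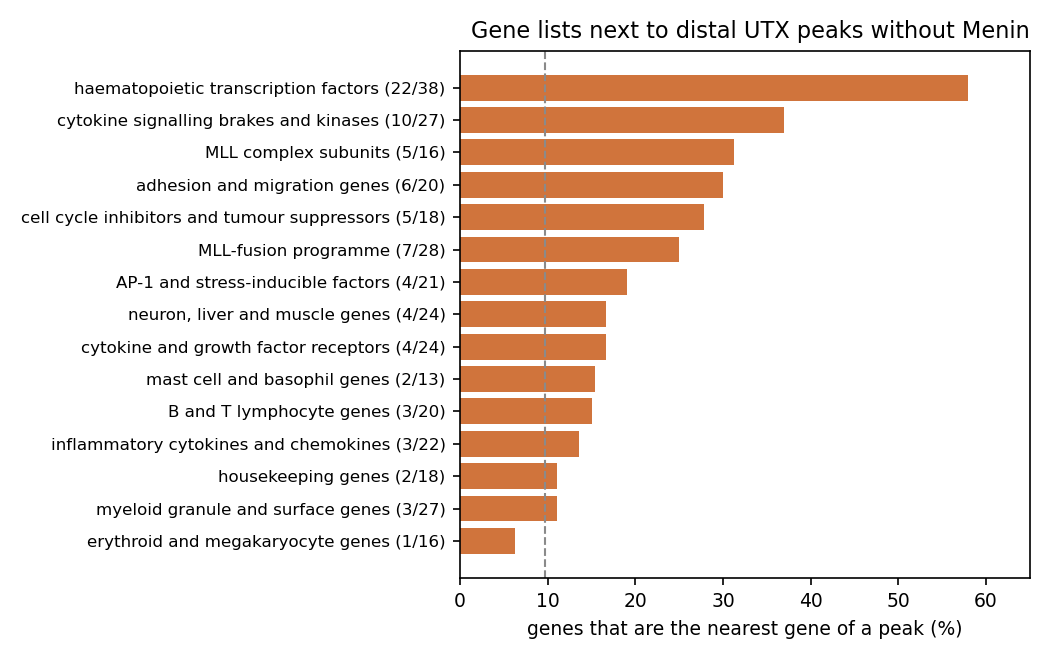
Share of the genes of each list that are the nearest protein-coding gene of a distal UTX peak without Menin (horizontal axis, percent), with the counts behind each share beside the list's name and the 9.73% of all protein-coding genes as a dashed line. Haematopoietic transcription factors reach 57.9%, and 14 of the 15 lists lie above the line. The exact Clopper-Pearson interval is 40.8 to 73.7% for these factors and 19.4 to 57.6% for signalling brakes and kinases. Adhesion and migration genes, MLL complex subunits and the MLL-fusion programme have lower bounds of 11.9%, 11.0% and 10.7%. Receptors have 4.74 to 37.4% and housekeeping genes 1.38 to 34.7%. These intervals cover counting error only and make no allowance for 15 lists drawn up with earlier results of these data known. They are no test of any list against the line.

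Of the lists for cytokine responses, 10 of 27 signalling brakes and kinases (37.0%) were next to a peak. They included both a kinase, Lyn (fold 7.07 inside the gene), and phosphatases that restrain receptor signals, Inpp5d (6.99 and 6.24) and Ptpn6 (6.56 and 6.53), one Ptpn6 peak being 68 bp from Menin. Stat3 had 6.87, and Cish, Dusp1, Dusp4, Spry2, Spred2 and Pim3 lay next to peaks of 4.85 to 7.11. Of 24 receptor genes 4 (16.7%) had one: Ifngr2 (9.30), Csf3r (7.66), Tnfrsf1b (6.37) and Il4ra (5.62). Of the AP-1 and stress-inducible genes 4 of 21 did, with Jun highest at 8.76, then Bach2, Junb and Nfil3. The Jun peak lay 89141 bp from the gene and the Bach2 peaks 99942 and 89758 bp from theirs. Inflammatory cytokine genes had 3 of 22 (Il1b, Csf1 and Nfkbia) and myeloid granule and surface genes 3 of 27 (11.1%). The latter included S100a9 with 4 peaks of 4.11 to 7.33 (1 of them on a background 3.30 times the lowest) and Ly6c2, whose peak of 2.08 stood on a background 119 times the lowest. Mpo, Elane, Lyz2 and Itgam had none. Adhesion and migration genes had 6 of 20, among them Cxcr4 (6.16) and Elmo1 (5.03 and 6.16).

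In the MLL-fusion programme 7 of 28 genes were the nearest gene of a peak, among them Runx2, Myc, Mef2c, Cdk6, Zeb2 and Mef2a. The Zeb2 peaks were far off, at 144637 and 1179467 bp from the gene. Counting any peak within 50 kb gave 5 genes of this list, beside 18.6% of all genes. The Myc peak had a fold of 4.96 at 77262 bp, and 2 peaks inside Cdk6, a kinase of the cell cycle, had 5.47 and 5.31. None of the 10 Hoxa genes of that list, nor Meis1, was the nearest gene of any peak. Of 16 MLL complex subunits 5 were: Ash2l (8.76), Setd1b (6.87 and 7.23), Paxip1 (6.02), Wdr5 (5.47) and Dpy30 (5.13), while Men1 and the 4 Kmt2 genes were not. Of 18 cell cycle inhibitors and tumour suppressors 5 were, among them Cdkn1a with a fold of 8.21 at 421 bp from a Menin peak, and Rb1, Ccng2 and Gadd45b with 5.25 to 6.24. For genes of other lineages, the counts were 4 of 24 for neuron, liver and muscle, 3 of 20 for B and T lymphocytes, 2 of 13 for mast cells and basophils, both also among the transcription factors (Gata2 and Mitf), and 1 of 16 for erythroid and megakaryocyte genes. That single gene, Vwf, had 4 peaks with folds of 3.74 to 9.30. Housekeeping genes had 2 of 18, Actb and Ywhaz. Apart from the transcription factors, the lists rest on 1 to 10 genes each.

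A small part of the group stood on ground rich in input reads. For 45 peaks (1.76%) the background recovered at the summit reached 3 times the list's minimum or more, near the 1.57% of all UTX MI-503 peaks. On the lowest background stood 984 (38.5%), a share that was not computed for all UTX MI-503 peaks. The 5 most extreme were 4 peaks at chr2:98662389-98667166, over 1 Mb from Lrrc4c, and 1 at chr9:3000342-3000556, 334792 bp from Alkbh8. They had 313 to 358 reads but folds of only 1.25 to 1.45 on backgrounds of 276 to 319 times the lowest. Within 500 kb of the first assembled base of a chromosome lay 32 of the 2558 peaks (1.25%, 95% interval 0.857 to 1.76), next to 0.469% of gene-end peaks with Menin and 1.10% of distal peaks with Menin.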

How the data were processed

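Peaks were called with MACS2 on single libraries, per the submitters' processing notes, which list mm10 for mouse. Neither the version nor the aligner, filters on reads or q cutoff is given in the sources used here. Both UTX lists were called against the DMSO UTX input, going by the deposited peak names. The deposited fold is the authors' ratio of summit pileup plus 1 to local background plus 1, and the deposited −log10 values are of p and q. The deposited score column was not used in any result. Solving each fold and −log10 p for pileup and background gave whole pileups (tolerance 0.0005 in −log10 p) in all 14225 UTX MI-503 peaks on chromosomes 1 to 19 and X and all 11195 Menin DMSO peaks, so read depth at a summit is known while library totals are not. UTX DMSO pileups were whole multiples of 0.874 in 217 of 217 peaks within 0.02, which puts that library at 1.14 times its input or more. Simulated pileups were recovered in 500 of 500 rows and planted peaks were classed as built in 11 of 11.

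Gene positions came from RefSeq on GRCm38.p6, the assembly of mm10, and starts from its promoter table. Python 3.11.15, numpy 2.4.6, pandas 2.3.3 and scipy 1.17.1 were used. Overlap was at least 1 shared bp, neighbours were summits within 10 kb, and input-rich ground was a background of at least 3 times the lowest. Exact Clopper-Pearson and Poisson 95% intervals cover counting error only. The peaks and the 15 gene lists were chosen with earlier results of these data known, and the search at annotated starts was added after seeing the data. The planned motif search around summits needs the genome sequence and was replaced by windows of the promoter table. Genes named were the nearest genes of the 10 most significant peaks, those with the most peaks, the longest runs, the peaks at the threshold, those overlapped in DMSO, those on the highest background, up to 10 genes a list, and the genes with known elements. Others, such as Maf, Ets1 and the named starts after the first 10 peaks, were chosen after their values were seen. Predicted genes were counted and not named, and some genes that this rule takes are not reported here. Alternatives changed the distance, gene set, Menin gap, thresholds, background and chromosomes.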

Additional observations from a re-analysis of the deposited data

How the results depend on the processing

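With 1 library used per condition no replicate could be left out and no paired analysis was possible because the labels give no replicate numbers. A summit over 10 kb from gene boundaries left 1365 peaks, and −log10 q of at least 5 left 1583. The median fold of 5.84 became 6.37 with −log10 q of at least 5 and 6.02 with fold of at least 5, by construction. The share inside a gene became 68.1% at 1 kb from boundaries. The share within 10 kb of another peak was 17.7% at 1 kb from boundaries, 9.45% at 10 kb, 16.8% with protein-coding boundaries only, 9.48% with −log10 q of at least 5 and 11.2% with fold of at least 5, and 10.9% and 19.9% for neighbours within 5 and 20 kb. The share of genes next to a peak was 13.1% at 1 kb, 5.46% at 10 kb, 11.4% with protein-coding boundaries, 9.32% without Menin within 1 kb, 6.51% with −log10 q of at least 5 and 8.08% with fold of at least 5. The share near an annotated start, for which all alternatives were added after seeing the data, was 11.0% at 1 kb, 4.92% at 10 kb, 11.7% with protein-coding boundaries and 4.48% within 250 bp. The transcription factor list had 11 genes next to a peak at 10 kb and 17 to 26 under the other settings; a peak within 50 kb gave 22, beside 18.6% of all genes. Of 140 counts for the other lists, 119 stayed within 1.5 times their value. In 9 of 135 pairs of list and setting, over 6 lists, the list's share crossed that of all genes. Receptors fell to 0 of 24 at 10 kb (all genes 5.46%), inflammatory genes to 1 of 22 with −log10 q of at least 5 (6.51%), and granule and surface genes to 2 of 27 (7.41%) without input-rich ground (9.59%). The 135 pairs leave out the count of any peak within 50 kb, where all genes had 18.6%. There the shares of MLL-fusion (5 of 28), lymphocyte (3 of 20) and inflammatory genes (3 of 22) crossed too. So did those of mast cell and basophil genes (2 of 13) and erythroid and megakaryocyte genes (3 of 16). Among comparisons of classes, recomputed after seeing the data, the distal peaks without Menin had the lowest median fold of the 4 classes and a lower share near starts than distal peaks with Menin in each of the 9 alternatives, with medians of 5.72 to 6.37. The share overlapped by UTX DMSO stayed within its interval under every setting tried. The median peak rests on 11 reads, and no second library was used to check any of them.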
